A study of Drosophila melanogaster with 2 samples.

Results

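Binding of Max-GFP was described at 29 nuclear genes that serve the import of proteins into mitochondria, the maintenance and transcription of mitochondrial DNA (mtDNA), and mitochondrial fusion, fission and mitophagy, out of 13945 protein-coding genes on the 6 main chromosome arms. The genes were chosen by name: the 15 protein-coding genes called Tom or Tim followed by a digit, and 14 listed genes (TFAM, mtTFB1, mtTFB2, PolG1, PolG2, mtSSB, mtDNA-helicase, PolrMT, Lon, Opa1, Marf, Drp1, Pink1 and park). All 29 were found in the annotation. The data are ChIP-seq peak lists from whole Drosophila melanogaster embryos of mixed sex, aged 0 to 24 h, of a transgenic line that stably makes Max with GFP at its C terminus, precipitated with an antibody against GFP. The only group is Max-GFP ChIP, with 2 biological replicates, numbered 2 and 3, and whole embryos mix all tissues and stages. The labels do not say what drives the tagged copy or whether untagged Max is also made.

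Max belongs to the basic helix-loop-helix family and binds DNA as a dimer with Myc, an activator of growth genes, or with Mnt, a repressor. Nearly all mitochondrial proteins are encoded in the nucleus, made in the cytosol and carried in through the TOM complex of the outer membrane and the TIM complexes of the inner membrane. The mtDNA itself is copied and transcribed by nucleus-encoded enzymes, and the shape and turnover of mitochondria depend on GTPases that fuse or divide them and on the Pink1-Parkin pathway, which marks damaged ones for removal.

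A gene was counted as bound when a summit of the list thresholded on the irreproducible discovery rate (IDR) lay within 500 bp of any of its annotated transcript starts. The IDR list holds the 4712 highest-scoring peaks of the pooled replicates, with scores down to 87.0. The pooled list goes on to 30000 peaks, where weaker summits were read. The authors label the pooled and replicate lists as peaks and background, so their lower entries can be background. Scores are the authors' and differ in scale between lists, so replicates are compared by rank, with rank 1 the strongest. The number of reads behind the peaks is unknown, because the lists hold none.

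The DNA under the summits is shown for the peaks at Lon and PolrMT, which had the highest scores, and at Tim9a, which held a DREF element. Each run is the summit base with 50 bases of dm6 (Release 6, from RefSeq) on either side, written 5′ to 3′ on the strand of the gene. Capitals mark the motifs CACGTG (the canonical E-box, the preferred site of Max dimers), TATCGATA (the DNA replication-related element, DRE, bound by DREF) and TATAAA, which in these windows is read as its reverse complement TTTATA.
Lon (chr3L:19612285-19612385, minus strand): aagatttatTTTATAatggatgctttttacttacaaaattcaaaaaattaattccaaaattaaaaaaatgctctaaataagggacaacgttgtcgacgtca
PolrMT (chr2L:1108290-1108390, minus strand): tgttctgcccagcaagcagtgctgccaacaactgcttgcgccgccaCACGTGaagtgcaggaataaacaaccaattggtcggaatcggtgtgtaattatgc
Tim9a (chrX:13384919-13385019, plus strand): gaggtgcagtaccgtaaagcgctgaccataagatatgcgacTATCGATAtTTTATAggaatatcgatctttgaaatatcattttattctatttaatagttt
The PolrMT summit lies inside the E-box, whose first base is 29 bp downstream of the PolrMT start. In the Tim9a window the DRE ends 2 bp from the summit and is followed after 1 base by TTTATA. The Lon window, under the strongest peak of the 29 genes, holds neither CACGTG nor TATCGATA and has a GC content of 24.8%.

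IDR summits lay at 12 of the 29 genes (41.4%), against 25.9% of all 13945 protein-coding genes. By role, 7 of the 9 mtDNA maintenance and transcription genes had one (77.8%), 2 of the 4 Tom genes, 2 of the 11 Tim genes and 1 of the 5 fusion, fission and mitophagy genes. The Tom and Tim genes together had 4 of 15 (26.7%), near the share over all genes. Differences between the roles were not tested. The bound genes were not among the strongest peaks as a group: their median score was 123, against 155 over the 3613 bound genes of the whole genome. At the 2356 highest-scoring IDR peaks alone, 5 of the 29 genes were bound (17.2%), against 15.5% of all genes. Where a summit counted only for the nearest start, 7 of the 29 were bound (24.1%), against 19.0% of all genes, and 4 of the 9 mtDNA genes.

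**Figure D1:**
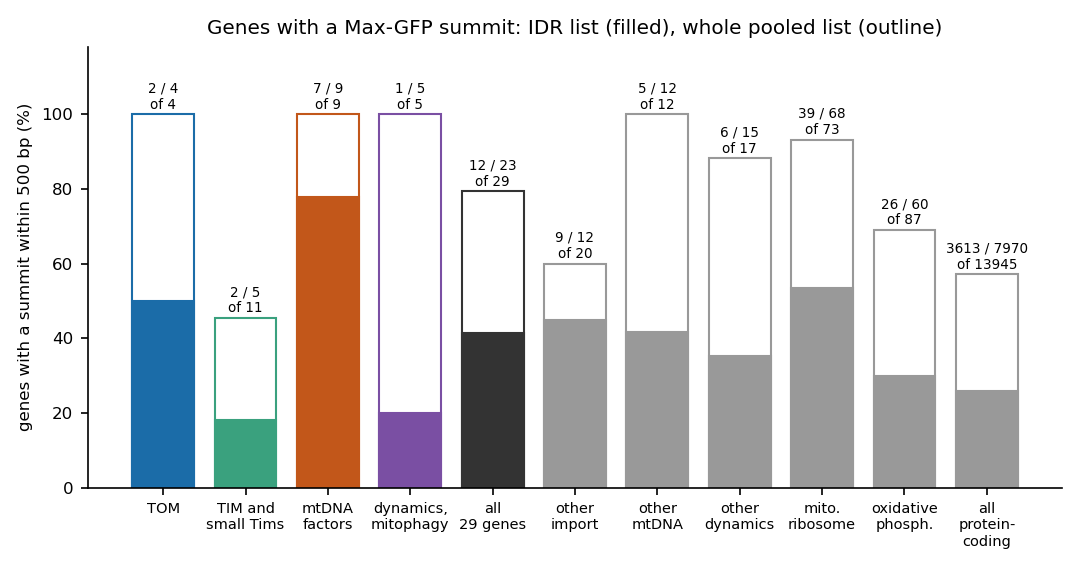
Share of genes with a Max-GFP summit within 500 bp of a start (%), for the 4 roles, all 29 genes, 3 lists of related genes, mitochondrial ribosomal protein genes, oxidative phosphorylation genes and all protein-coding genes. Filled bars count the IDR list, outlines the whole pooled list, and the numbers above give IDR / pooled of all genes in the group; the mtDNA factors have the highest filled bar (7 of 9), and the Tim genes the lowest (2 of 11).

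With the weaker peaks of the pooled list 23 of the 29 genes had a summit within 500 bp (79.3%), against 57.2% of all protein-coding genes. That took in all 4 Tom genes, all 9 mtDNA genes and all 5 dynamics and mitophagy genes. Since this list includes background, a low entry is not shown to be binding. For example, −log10 of the q-value was 0.32 at park, 0.55 at PolG1 and 0.93 at mtTFB2. The 6 genes with none were Tim13, Tim17a1, Tim17b, Tim17b1, Tim17b2 and Tim23, so every gene with no pooled summit was a Tim gene. In the separate lists of both replicates a summit lay within 500 bp at 20 of the 29 genes (69.0%), against 47.2% of all genes. Each of these lists ends at 30000 peaks, so a missing summit says only that any peak there ranked lower.

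**Figure D2:**
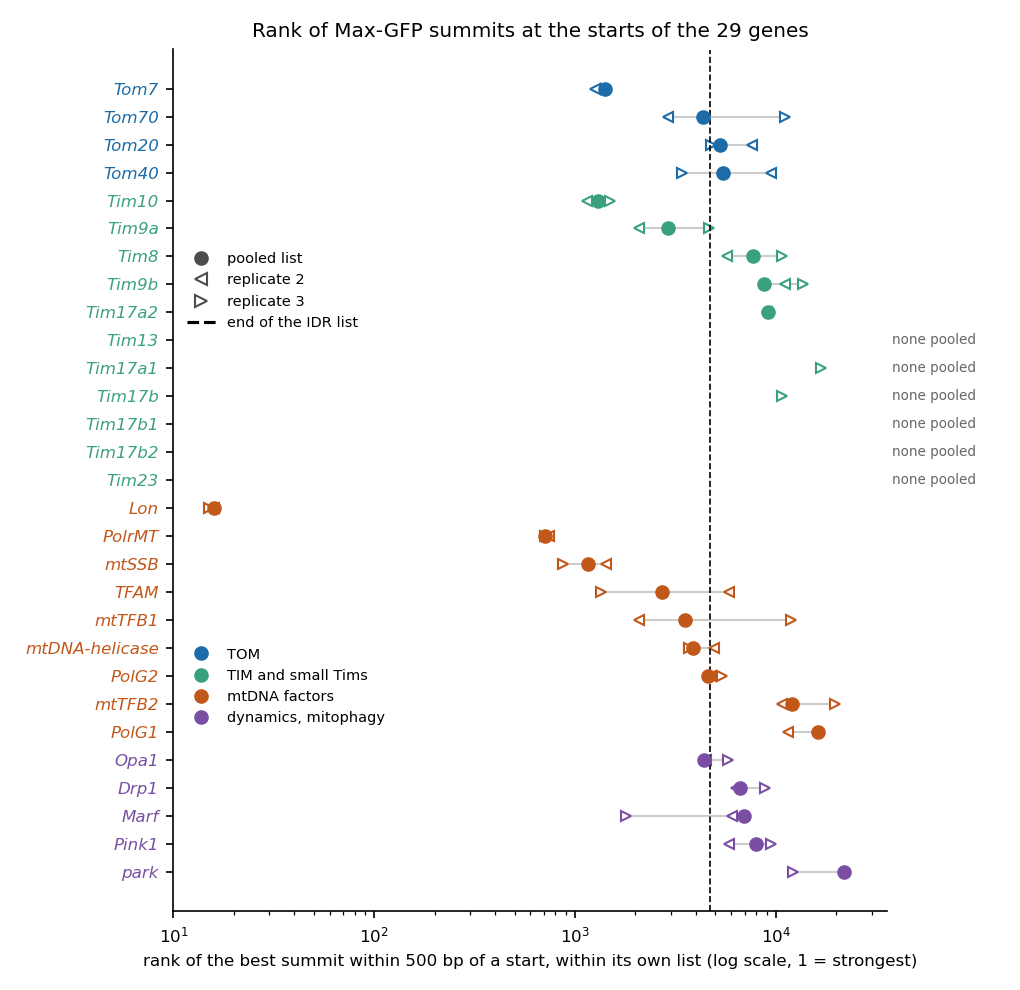
Rank of the best summit within 500 bp of a start for each of the 29 genes, on a log axis where 1 is the strongest peak; filled circles give the pooled list, left-pointing triangles replicate 2 and right-pointing triangles replicate 3, colours give the role, and the dashed line is the end of the IDR list at 4712. Lon stands alone at rank 16, the Tom genes sit near or left of the line, and 6 Tim genes have no pooled summit.

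Among the factors that copy and keep mtDNA, the strongest peak was at Lon, the protease of the mitochondrial matrix that in Drosophila cells degrades TFAM. Its peak on 3L, from 19612125 to 19612542, had a score of 928 and ranked 16 of 4712, higher than at 99.5% of bound genes. It ranked 16 in replicate 2, with a score of 527, and 15 in replicate 3, with a score of 397. The summit at 19612335 lies between genes, 136 bp upstream of the Lon start and 120 bp from the start of PIG-F on the other strand, so the peak cannot be assigned to Lon alone.

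The mtSSB gene encodes the single-strand binding protein of the mtDNA replication fork. Its peak on 3R, from 16205238 to 16205673, had a score of 203 and rank 1162. The ranks were 1423 in replicate 2 and 871 in replicate 3. The summit was 206 bp upstream of the start with no other protein-coding start within 500 bp. A weaker pooled summit stood farther upstream at 405 bp, with a score of 67.2.

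The replicative helicase, mtDNA-helicase, the fly homologue of Twinkle, had a score of 100.1 and rank 3874. It ranked 4905 in replicate 2 and 3685 in replicate 3. Its summit lay 143 bp inside the transcript in a coding exon, unlike the other bound genes, and CACGTG lay 66 bp from it.

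The subunits of the mtDNA polymerase stood on either side of the threshold. PolG2, the accessory subunit, had a score of 88.5 and rank 4608, the lowest of the 12 bound genes, and ranked 4747 in replicate 2. In replicate 3 the nearest summit was 173 bp away and ranked 5404. GatC, a subunit of the mitochondrial tRNA amidotransferase, has the same annotated start as PolG2, and the start of Polr2C is 181 bp from the summit. PolG1, the catalytic subunit, had only a weak pooled summit 19 bp inside the transcript, with a score of 34.8 and rank 16332, which replicate 3 lacked within 500 bp, while replicate 2 had a summit at rank 11518.

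Of the genes for mtDNA transcription, PolrMT, the mitochondrial RNA polymerase, had the highest score, with 258 at rank 707. The ranks were close in replicate 2 (740) and replicate 3 (710). Its peak runs on 2L from 1108122 to 1108557, and the summit at 1108340 falls in the 5′ UTR, 33 bp past the start. A second IDR summit with a score of 108 lay 171 bp upstream, 4 bp from the start of CG14339 on the other strand.

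TFAM, which packages mtDNA and activates its promoters, had a score of 125 and rank 2711. Its rank differed between the libraries: 5867 in replicate 2, with a score of 49.3, and 1350 in replicate 3, with a score of 73.1. The summit lay upstream of TFAM and 58 bp from the start of CG5412, a divergent gene that starts 43 bp from TFAM.

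The paralogs mtTFB1 and mtTFB2 differed in the lists. The mtTFB1 product is in mammals a methyltransferase of mitochondrial ribosomal RNA, and mtTFB2 is the transcription factor that opens promoters together with the polymerase. At mtTFB1 the score was 107 and the rank 3520, but the summit was 443 bp upstream of its start and only 17 bp from that of CG11658, and it ranked 2078 in replicate 2 and 13867 in replicate 3. Ccdc56, a factor for the assembly of cytochrome c oxidase, shares the annotated start of mtTFB1. At mtTFB2 the pooled summit was 14 bp upstream of the start but weak, with a score of 43.3 and rank 12115, and TATCGATA lay within 50 bp of it. The summits nearest the mtTFB2 start ranked 10791 in replicate 2 and 19700 in replicate 3.

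Of the Tom genes, Tom7 and Tom70 had IDR summits. Tom7, a small subunit that in yeast tunes the assembly of the TOM complex, had summits 420 and 220 bp upstream of its start, with scores of 182 and 105.0. The best summit ranked 1257 in replicate 2 and 1432 in replicate 3, where it lay nearer to the weaker of the pair. The stronger is 89 bp from the starts of CG33199 and CG8229 on the other strand. Tom70, a receptor for carrier precursors, had a score of 92.1 at rank 4349, and its summit was 7 bp past a start, inside the 5′ UTR. Replicate 2 had it at rank 2913 and replicate 3 at rank 11164.

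Tom20, the receptor for presequences, and Tom40, the channel of the complex, lay just below the threshold. The best pooled summit of Tom20 had a score of 80.5 and rank 5261, and lay 388 bp upstream and 9 bp from a start of Gabat. The nearest summit to it was 141 bp away in replicate 2, at rank 9367, and 5 bp away in replicate 3, at rank 4783. Another pooled summit with a score of 51.5 was 33 bp upstream of an internal start of Tom20. The best replicate 2 summit of Tom20, at rank 7650, lay 152 bp upstream of that internal start. Tom40 had a score of 78.3 and rank 5468, with the summit in a coding exon 124 bp downstream of the nearest start, and ranked 9430 in replicate 2 and 3399 in replicate 3. The nearest genes inside the threshold were PolG2 at 88.5, Opa1 at 91.4 and Tom70 at 92.1.

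The small Tim proteins are chaperones that escort hydrophobic proteins across the intermembrane space, and 2 of the 5 had an IDR summit. Tim10 had a score of 191 and rank 1305, and ranked 1148 in replicate 2 and 1495 in replicate 3. Its summit was 108 bp upstream of the start it shares with CG42497, and 48 bp from the starts of CG42496 and Ppcdc on the other strand. A CACGTG lay 64 bp from the summit. Tim9a had a score of 120.4 and rank 2899, with ranks of 2077 in replicate 2 and 4661 in replicate 3. Its summit, beside the DRE shown above, lay 241 bp upstream of Tim9a.

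Tim8 and Tim9b had weak pooled summits, with scores of 60.8 and 55.3. The Tim8 summit was 342 bp upstream of Tim8 and 5 bp from the start of hop, which encodes the JAK kinase. It ranked 7690 in the pooled list. The nearest summit to it was 121 bp away in replicate 2, at rank 5744, and 58 bp away in replicate 3, at rank 11766. The best replicate 3 summit of Tim8, at rank 10737, lay 183 bp downstream of the Tim8 start. Tim9b, which has the same annotated start as Pstk, ranked 8721 in the pooled list and 11177 in replicate 2. The summit of replicate 3, at rank 13689, was 29 bp upstream of the start, while the pooled one was 89 bp downstream. Tim13, which in yeast pairs with Tim8, had no pooled summit nearer than 1799 bp.

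The channel subunits of the presequence translocase had no IDR summit. None of the 5 Tim17 genes had one within 500 bp, against 25.9% of all protein-coding genes. Farther out, IDR summits lay 956 bp from the Tim17a2 start, with a score of 179, and 970 bp from the Tim17b1 start, with 93.3. Both genes counted as bound with a 1000 bp window, against 28.8% of all genes. In the pooled list only Tim17a2 had a summit within 500 bp (1 of 5, against 57.2% of all genes). It lay in the Tim17a2 intron, 363 bp downstream of the start, with a score of 53.3. The difference from the small Tim genes was not tested. Tim17b had a summit in replicate 3 alone, 49 bp upstream at rank 10697, and Tim17a1 one in replicate 3 alone at rank 16783. Tim23, the pore-forming partner of Tim17, had its nearest pooled summit 1061 bp away. The Tim17 genes are paralogs, and whether reads could be placed on each copy was not tested.

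Of the fusion, fission and mitophagy genes, Opa1, the GTPase of inner membrane fusion, had an IDR summit. Its score was 91.4 at rank 4398, 77 bp upstream of the start with no other protein-coding start within 500 bp. It ranked 4476 in replicate 2 and 5791 in replicate 3. Drp1, the GTPase of fission, had its summit 55 bp upstream with a score of 68.4 and rank 6602, and ranked 6322 in replicate 2 and 8855 in replicate 3. Pink1, the kinase that starts mitophagy, had a score of 59.1 at rank 7979. Replicate 2 had that summit at rank 5849, while the nearest summit of replicate 3, at rank 9473, was 486 bp away at another Pink1 start. The gene park encodes Parkin, the ubiquitin ligase that acts with Pink1, and had a score of 28.0 at rank 21990 and no summit within 500 bp in replicate 2, while replicate 3 had one at rank 12194.

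Marf, the fly mitofusin, had a stronger peak just outside the window. Its pooled summit at the start, 37 bp upstream, had a score of 66.2 and rank 6920, and near the start replicate 2 had rank 6029 and replicate 3 rank 11854. An IDR summit with a score of 168 and rank 1659 lay 539 bp downstream of the start in an intron, on X from 6366414 to 6366574, and held CATGTG, a variant E-box, within 50 bp. It ranked 1712 in replicate 2 and 1802 in replicate 3. No other gene of the 29 had an IDR summit in its body beyond 500 bp from a start.

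**Figure D3:**
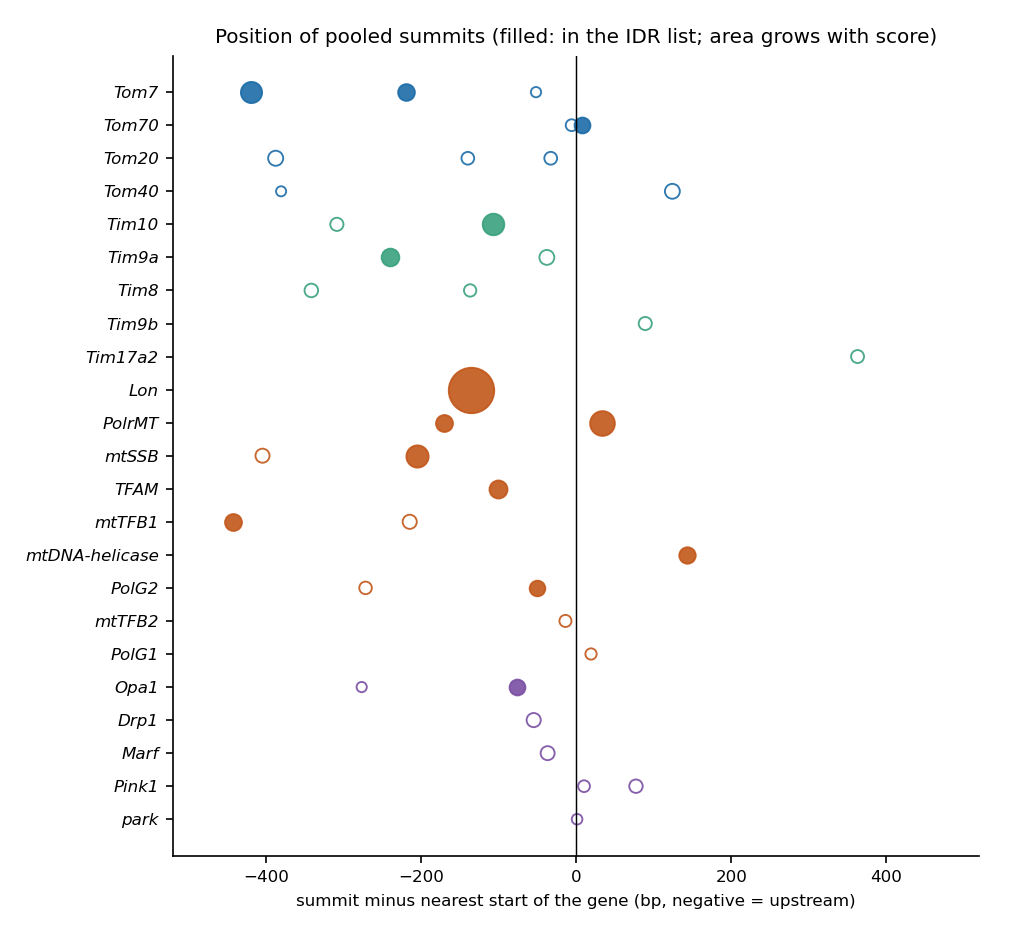
Distance of each pooled summit from the nearest start of its gene in bp, negative upstream, for the 23 genes with a pooled summit; filled circles are in the IDR list and circle area grows with score. The best IDR summits run from 443 bp upstream at mtTFB1 to 143 bp downstream at mtDNA-helicase, and weak summits at Drp1, Marf, park, PolG1 and mtTFB2 lie within 55 bp of a start.

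The best summits of the 12 bound genes were upstream of the nearest start by a median of 104.5 bp, against 116 bp over all bound genes, and 9 of the 12 were upstream (75.0%, against 84.2%). Another protein-coding gene had a start within 500 bp of the summit at 8 of the 12 (66.7%, against 61.1%). The 4 without such a neighbour were Tom70, mtDNA-helicase, mtSSB and Opa1. Divergent promoters, where a protein-coding gene on the other strand starts within 1000 bp upstream, were found at 8 of the 12 bound genes (66.7%) and 5 of the 17 others (29.4%). Over all genes the same shares were 67.3% and 25.4%, so the 29 genes lay near the background here.

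Sequence motifs were counted within 50 bp of the best summit on both strands. CACGTG was at 1 of the 12 bound genes, PolrMT, against 4.45% of the 2855 promoter summits of the IDR list. TATCGATA was at 1, Tim9a, against 5.57%. GGTCACAC (Ohler 1, bound by M1BP) was at none, against 3.47%, and GGTATTTT (Ohler 6) was at Tom7, against 2.00%. TATAAA was at 4, namely Lon, mtSSB, TFAM and Tim9a, against 22.2%. None of the 12 had the variant E-box CACGCG (2.73% of promoter summits) in this window. The variant CATGTG was at none either, against 4.03%. The same held for CATCNCTA (Ohler 7), against 3.47%, and for the GAGA repeat GAGAGAG, against 1.30%. The nuclear respiratory gene (NRG) element of Drosophila, searched as TTACATAA or TTACGTAA and also as TTATATAA or TTATGTAA, was at none, against 2.52%.

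Promoters of 300 bases, from 250 bp upstream to 50 bp downstream of the canonical start, held CACGTG at 5 of the 29 genes, against 4.26% of all promoters. These were PolrMT and Tim10, which were bound, and mtTFB2, Tim17b1 and Tim17b2, which were not. GGTCACAC was in the promoters of Tom7, mtTFB1, Opa1, Marf and Pink1, against 7.54% of all promoters, and TATCGATA in those of Tim9a, mtDNA-helicase and mtTFB2, against 8.94%. A match is a stretch of letters and not a measured site.

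Ranks in the replicates were near each other at Lon and PolrMT and far apart at TFAM, mtTFB1, Tom70 and the weaker Tom7 summit. Of the 14 IDR summits at the 12 genes, 12 had a summit within 100 bp in both replicate lists. The larger rank was 1.07 times the smaller at Lon, 1.04 times at the main PolrMT summit, 3.83 times at Tom70, 4.35 times at TFAM, 6.67 times at mtTFB1 and 7.77 times at the weaker Tom7 summit. Among the weaker peaks it was 1.29 times at Opa1 and 1.33 times at mtDNA-helicase. Over all 4346 IDR summits with a summit within 100 bp in both lists the median ratio was 1.56. There the best-ranked summit within 100 bp was taken, and at the 12 genes the nearest one. With as many top peaks taken from replicate 3 alone 10 of the 29 genes were bound (34.5%, against 25.0% of all genes), and from replicate 2 alone 9 were (31.0%, against 26.0%). Of the 12 bound genes, 8 were among the 10 of replicate 3, with Marf, through its intronic peak, and Tom40 added and Opa1, Tom70, PolG2 and mtTFB1 lost. All 9 of replicate 2 were among the 12. Of the 7 bound mtDNA genes, 5 were bound from replicate 3 alone and 4 from replicate 2 alone. In replicate 2 alone the 3 lost genes were TFAM, mtDNA-helicase and PolG2.

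**Figure D4:**
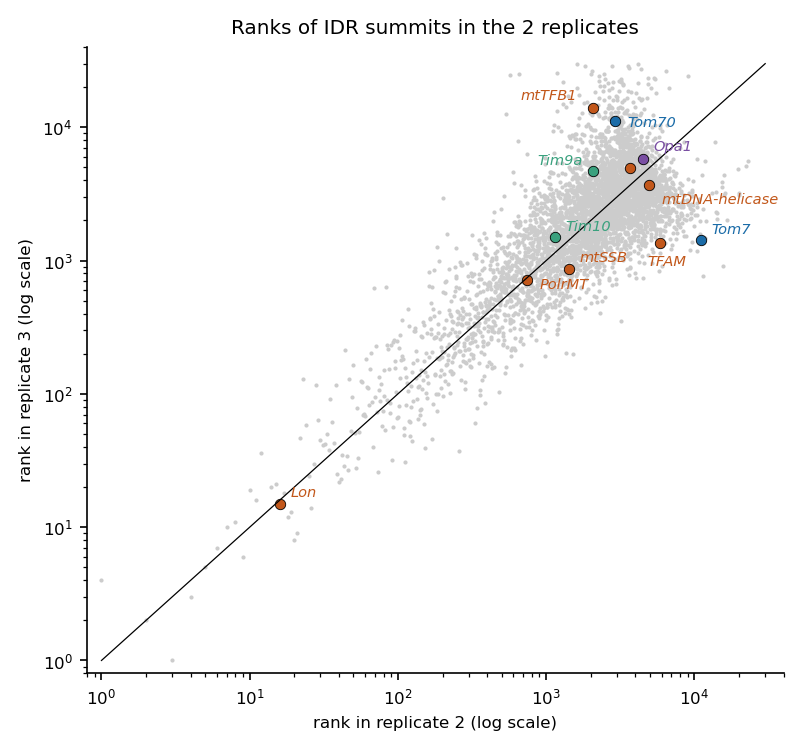
Rank in replicate 2 against rank in replicate 3, both on log axes, for the IDR summits with a summit within 100 bp in both lists; grey dots are all such summits, and labelled circles are those at the 29 genes, coloured by role, where each gene is labelled once. Lon, PolrMT, Opa1, Tim10 and mtDNA-helicase, with ratios of 1.04 to 1.33, lie near the line of equal ranks, and TFAM, mtTFB1, Tom70 and the weaker Tom7 summit lie off it.

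Genes of the same pathways outside the 29 were listed by hand, and 10 names on these lists were not found in the annotation. Of 20 other import and sorting genes 9 were bound (45.0%), against 25.9% of all protein-coding genes. The highest were CG7639 with a score of 428, CG7394, which RefSeq also calls TIM14, with 316, ttm50, a fly homologue of Tim50, with 278, and Hsc70-5, the Hsp70 of the import motor, with 249. The paralogs tomboy20, tomboy40, ttm2 and ttm3 had no pooled summit. Of 12 other genes for mtDNA and mitochondrial transcripts 5 were bound (41.7%), led by PNPase, an exoribonuclease of mitochondrial RNA, with 1185, mTerf5, a relative of the mitochondrial transcription termination factor, with 238, EndoG, a mitochondrial nuclease, with 179 and rswl with 164. All 12 had a pooled summit, against 57.2% of all genes. Of 17 other dynamics and mitophagy genes 6 were bound (35.3%), with clu at 205, rho-7, a rhomboid protease, at 188, milt, an adaptor of mitochondrial transport, at 155 and Usp30, a deubiquitinase that in mammals opposes Parkin, at 121. Of these named genes, CG7394, ttm50, Hsc70-5, mTerf5, rswl, rho-7 and Usp30 share their peak with another protein-coding start. The fusion gene fzo had no pooled summit. By the same count 39 of 73 mitochondrial ribosomal protein genes (53.4%) and 26 of 87 nuclear oxidative phosphorylation genes (29.9%) were bound, against 25.9% of all genes. Of these bound ribosomal protein genes, all but mRpL10, mRpL19 and mRpL41 share their peak with another protein-coding start. The same holds for the bound oxidative phosphorylation genes other than ND-B22, ATPsynC, UQCR-C2, ATPsynO and UQCR-14. Over all bound genes 61.1% share it. The 87 include paralogs such as COX4L, ND-51L1 and UQCR-14L, which had no pooled summit. The share without such paralogs was not counted. Differences between these lists and the 29 genes were not tested.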

How the data were processed

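The data are ChIP-seq peak lists of 2 biological replicates of Max-GFP embryos, per the labels sonicated to fragments of 200 to 800 bp. Per the listings deposited with the samples, the authors set IP alignments against a control and made dm6 peak lists for each replicate and for both pooled, and an IDR-thresholded list. Neither aligner nor peak caller is given in the sources used here. The lists deposited by the authors hold a score per peak, −log10 of a q-value, which was not used to select peaks, and the summit. The 4712 IDR peaks were the 4712 highest-scoring peaks of the pooled list. The dm3 lists were not used.

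Summits were set against all transcript starts of Ensembl release 115 (BDGP6), and sequences were read from the RefSeq Release 6 assembly (dm6), with coordinates counted from 1. Where several summits lay within 500 bp of a gene, the one with the highest score was used. Counts were made with Python 3.11.15 and numpy 2.4.6, and the counting was tested on planted summits. Mitochondrial ribosomal and oxidative phosphorylation genes were taken by name pattern. The genes, lists, motifs and settings were chosen with earlier results of these data known, so no list was tested and no p-value is given. All 29 genes are named; of the other lists, up to 4 bound genes with the highest scores, and any further gene was chosen after its values were seen. Sequences are shown for bound genes among the 5 highest scores or with an E-box, DRE or Ohler 1 at the summit, apart from one chromosome arm and 1 sequence that is not reported here. No protein table was used. Peaks pool both replicates, so no error between embryos can be given for a score.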

Additional observations from a re-analysis of the deposited data

How the results depend on the processing

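Of the 29 genes, 11 were bound with a 250 bp window (37.9%, against 21.9% of all genes), 15 with a 1000 bp window (51.7%, against 28.8%), 12 with 1 start per gene (41.4%, against 23.4%) and 9 where the peak interval had to overlap a start (31.0%, against 18.4%); 12 were bound as reported. At the 2356 highest-scoring IDR peaks 5 were bound (2 import, 3 mtDNA and 0 dynamics genes), with 2160 genes in all. Down to 9424 pooled peaks 20 were bound (69.0%, against 39.1% of all genes; 9 import and 4 dynamics genes), with 53 of the other pathway genes and 5459 of all genes. Where a summit counted only for the nearest start, 7 were bound (24.1%, against 19.0% of all genes), with 2 import and 4 mtDNA genes, and Lon, TFAM, mtTFB1, Tim10 and Tim9a were lost. With overlap of a start 2 import genes were bound, and with the 1000 bp window 2 dynamics genes. From 1 replicate alone the mtDNA genes bound were 4 to 5. PolrMT and mtSSB stayed bound under all 9 alternatives, and Tim13, Tim17a1, Tim17b, Tim17b2, Tim23, PolG1, mtTFB2 and park under none. Bound genes with CACGTG at the summit were 3 within 100 bp and 3 within 200 bp, and from 1 replicate alone 1 to 2. For TATCGATA they were 2 within 200 bp, and from 1 replicate alone 0 to 1. For Ohler 1 they were 1 within 100 bp and 1 within 200 bp. The share over all promoter summits was counted only within 50 bp, so these wider counts have none beside them. The same holds for the CACGTG 64 bp from the Tim10 summit and 66 bp from that of mtDNA-helicase. Of 72 comparisons with the reported counts and medians 49 stayed within 1.5 times. No paired analysis was possible because there is 1 group. Depth is unknown, and a binding limited to 1 tissue or stage may fall below these lists, so an unbound gene is not shown to lack Max.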

Other observations

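Genes that act on many mitochondrial genes from the nucleus were also read. Of 13 such regulators 8 were bound (61.5%, against 25.9% of all protein-coding genes), among them REPTOR, a transcription factor under TOR control, with a score of 469, ERR, the oestrogen-related receptor, with 230, M1BP with 197 and Dref with 195. The gene srl, the fly PGC-1, had 149. All 13 had a pooled summit, against 57.2% of all genes, with sima at 81.2, Ets97D at 80.3 and ewg at 71.5 below the IDR list. Only 4 of the 13 have 1 annotated start, against 10246 of all 13945 genes, so more windows were searched per gene. The share with 1 start per gene was not counted for these regulators. Of 11 genes for mitochondrial proteases and prohibitins 4 were bound (36.4%, against the same 25.9%): Afg3l2 with 198, HtrA2 with 187, Phb2 with 98.3 and ClpP just above Phb2. The HtrA2 peak is shared with mRpL11, the ClpP peak with CtsL4, the Dref peak with RpL13, the ERR peak with Atg18a, the M1BP peak with CG8202 and the ewg peak with CG3777.

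Tim17b and Tim23 lay far from any IDR summit. The nearest was 479334 bp from a Tim17b start on 3R and 1183475 bp from the Tim23 start on 2L, while for the other unbound Tim genes it was at most 45606 bp away. These distances are to the nearest IDR summit of any gene or region. How many other genes lie as far from an IDR summit was not counted. Whether reads could be placed in these stretches was not tested. Lon ranked 16 of 4712 among all IDR peaks, and PNPase ranked 7.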
